A study of Canis lupus familiaris with 45 samples.

Results

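Respiratory complex I is read here through 42 genes, all genes whose platform symbol starts with NDUF on a canine expression array, out of 9113 genes measured above background. Where a gene had several probe sets with that symbol alone, the one with the highest mean over the 45 arrays stood for it, and a gene was kept where 4 or more arrays read above a log2 value of 4. All 42 genes met this limit, and 40 of their gene identifiers were found in the RefSeq table for the dog. They were sorted by name into 10 NDUFS and NDUFV genes, 25 accessory subunit genes (NDUFA, NDUFB, NDUFC and NDUFAB1) and 7 assembly factor genes (NDUFAF). The samples were subcutaneous fat of 9 intact female beagles aged 4 years, taken after a night without food at weeks 0, 4, 8, 12 and 24, with 1 array per dog and week. The 4 control dogs (dogs 1, 3, 4 and 9) were fed to keep their starting weight, and the 5 ad libitum dogs (dogs 2, 5, 6, 7 and 8) ate without limit after week 0. Both groups ate Purina Pro Plan Performance Formula, and dogs were assigned to a group at random, so the feeding amount is the labelled difference between them. The dogs are separate animals, and their small number limits the precision of every comparison.

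Complex I (NADH:ubiquinone oxidoreductase) is the entry point of the mitochondrial respiratory chain: it takes electrons from NADH, passes them to ubiquinone and pumps protons across the inner membrane. A hydrophilic arm holds the NADH site (the N module) and the ubiquinone-reducing Q module, a membrane arm does the pumping, and many accessory subunits surround both. Assembly factors build the complex and are not part of the finished enzyme. In fat cells the respiratory chain supplies the ATP for fat synthesis and storage, and in brown and beige fat cells it drives heat production. The pumping core of the membrane arm is encoded by mitochondrial DNA, and those genes are not analysed here. Of the nuclear catalytic core, NDUFS1, NDUFS3, NDUFS7, NDUFS8, NDUFV1 and NDUFV2 were measured, while NDUFS4, NDUFS5, NDUFS6 and NDUFV3 carry the same prefixes but encode accessory subunits. NDUFA4 is now counted as a subunit of complex IV, and NDUFA4L2 is its hypoxia-induced relative.

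Several arrays stood apart before any comparison of the feeding groups. By a check of dog identity, 43 of 45 arrays matched the dog on their label. The exceptions were both from week 8: the library labelled control dog 9 was most like dog 5 (r = 0.80), and the library labelled ad libitum dog 5 was most like dog 9 (r = 0.91). Skeletal muscle transcripts were present on 10 arrays, where the mean of a list of 24 muscle genes was 8.51 to 14.87, against 4.19 to 6.14 on the other 35. They include 5 of the 9 week-0 arrays (control dogs 1 and 3 and ad libitum dogs 5, 7 and 8) and, at week 24, control dogs 3 and 4 but no ad libitum dog. All 9 week-24 arrays form batch 6, and no other week is in it, so week 24 and batch 6 cannot be told apart. The 13 adipocyte markers were above background on all arrays, with list means of 11.48 to 13.84, and the samples are labelled as fat.

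The 42 genes moved together from array to array. The median correlation over the 861 gene pairs was 0.72 across the 45 arrays, and 0.70 after group means and batch were taken out. These arrays share dogs, batches and tissue composition, so the value is a description. NDUFB8 and NDUFB9, subunits of the distal membrane arm, were closest to the rest (median r with the other members 0.88 for each). NDUFAF2, an assembly factor related to the subunit NDUFA12, ran opposite to the others (median r = -0.56), and NDUFAF4, an early assembly factor, did so weakly (-0.19). NDUFAF7 (0.25), NDUFA4L2 (0.28), NDUFS1 (0.42) and NDUFAF1 (0.42) were only loosely tied to the rest. NDUFAF4 also varied most, with an SD of 1.44 over the arrays and a range of 3.69 to 8.88. Of the accessory genes NDUFB5, a membrane-arm subunit, varied most (SD 0.61) and NDUFC1, a small one, least (SD 0.19), and of the assembly factors NDUFAF1 varied least (SD 0.28). Among the NDUFS and NDUFV genes the SD was highest for NDUFS8 (0.71) and lowest for NDUFS4 and NDUFS5 (0.28 each).

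Before the feeding change the dogs of the 2 groups overlapped in their mean over the 42 genes. Even so, the batch-adjusted difference, ad libitum minus control, was below 0 in 39 of 42 genes, with a median of -0.15. The mean of the 42 genes at week 0 was 11.96, 12.43, 11.72 and 11.62 in control dogs 1, 3, 4 and 9, and 11.43, 11.36, 11.74, 12.16 and 12.04 in ad libitum dogs 2, 5, 6, 7 and 8. The highest control value came from an array with muscle transcripts, as did the highest ad libitum value. Group means were then 11.93 ± 0.14 (SD, n = 4) in control and 11.66 ± 0.13 (SD, n = 5) in ad libitum dogs at week 4, 11.78 ± 0.43 and 11.83 ± 0.15 at week 8, and 11.68 ± 0.17 and 11.58 ± 0.24 at week 12. At week 24 they were 10.97 ± 0.10 and 11.51 ± 0.38. The control mean of week 24 was below the control means of all earlier weeks, and the ad libitum mean was also the lowest of its own 5 weeks, by a smaller step.

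**Figure D1:**
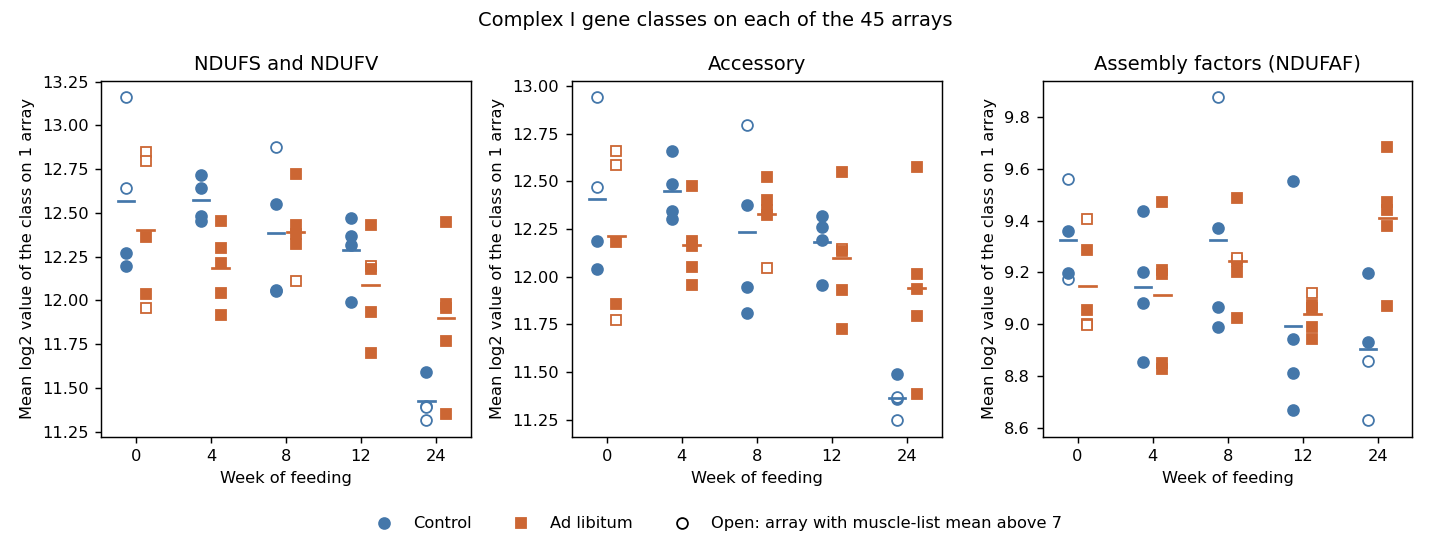
Mean log2 value of the NDUFS and NDUFV genes (left), accessory subunit genes (middle) and NDUFAF genes (right) on each array, by week of feeding; circles are control dogs, squares ad libitum dogs, open symbols arrays with a muscle-list mean above 7, and short lines group means. The 4 control arrays at week 24 lie at 11.31 to 11.59 for the NDUFS and NDUFV genes, below every other control array, and 1 ad libitum array lies among them.

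Through week 12 limma called 0 of the 42 genes between the feeding groups. Of all 22687 probe sets tested, 0% were called at week 0, 0.0132% at week 4, 1.42% at week 8 and 0.00441% at week 12. The number of members with an unadjusted p under 0.05 was 0 at week 0, 0 at week 4, 1 at week 8 and 4 at week 12. Of all 22687 probe sets, 312, 2060, 5669 and 2510 had such a p, in the same order of weeks. At week 0 the members with the smallest p were NDUFA4 (log2 difference, ad libitum minus control, -0.35), NDUFS3, a Q-module core subunit (-0.33), and NDUFA6 (-0.24) below 0, and NDUFA4L2 (0.40), NDUFA10 (0.06) and NDUFS1 (0.04) above it. For NDUFA10 the plain difference of the group means had the other sign (-0.04), since the fit adjusts for batch. At week 4 they were NDUFAF4 (1.44), NDUFA4 (0.27) and NDUFA11 (0.32) above 0, and NDUFAF3 (-0.54), NDUFB7 (-0.41) and NDUFS5 (-0.20) below it. At that week all control arrays were in batches 1 and 2 and all ad libitum arrays in batches 3 to 5, so the comparison rests on batch differences estimated at other weeks. The median over the members was -0.04 as fitted and -0.30 as a difference of group means, 12 members had opposite signs by the 2 measures, and NDUFA11 was one of them (-0.33 by the means). Without the batch term 0 members were called at week 4 and 7 had an unadjusted p under 0.05. At week 8, where the 2 arrays with doubtful dog labels enter, they were NDUFA4L2 (0.69), NDUFAF6 (0.54) and NDUFA7 (0.40), and NDUFS4 (-0.27), NDUFAF4 (-1.20) and NDUFAF7 (-0.27). At week 12 they were NDUFAF4 (0.60), NDUFAF2 (0.15) and NDUFS4 (0.10), and NDUFV3 (-0.85), NDUFB10 (-0.42) and NDUFAF3 (-0.53). The smallest adjusted p of a member in these 4 comparisons was 0.179, for NDUFA4L2 at week 8.

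At week 24, 5 of the 42 genes were higher in ad libitum than in control dogs and 0 were lower by limma's test, against 3.76% of all probe sets called higher. The 5 genes were NDUFA7, NDUFAF6, NDUFA4, NDUFAF1 and NDUFB6. The fitted difference was above 0 for 41 of 42 members, with a median of 0.53 against 0.01 over all probe sets tested. An unadjusted p under 0.05 was found for 28 members, and for 5155 of all 22687 probe sets. A shared sign was not particular to week 24, as the members moved together at other weeks too. At week 0, 39 of 42 were below 0 (median -0.15), and at week 12, 37 were (median -0.27). At week 4, 28 were below 0, and at week 8, 30 were above it. In 10 members every ad libitum dog was above every control dog, against 5.41% of all probe sets. The call depended on single dogs: leaving out dog 2 gave 0 calls, leaving out dogs 3, 4 or 7 gave 1 each, and leaving out dogs 1 or 6 gave 2 each. Omitting dog 8 gave 3, and omitting dog 5 gave 22. The number of all probe sets called, in either direction, moved as well. It was 1238 with all dogs, 238 without dog 2, 3096 without dog 5 and 406 to 961 without any other dog. Without dog 2 the median difference was 0.39, with 39 of 42 members above 0 and 14 with an unadjusted p under 0.05.

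**Figure D2:**
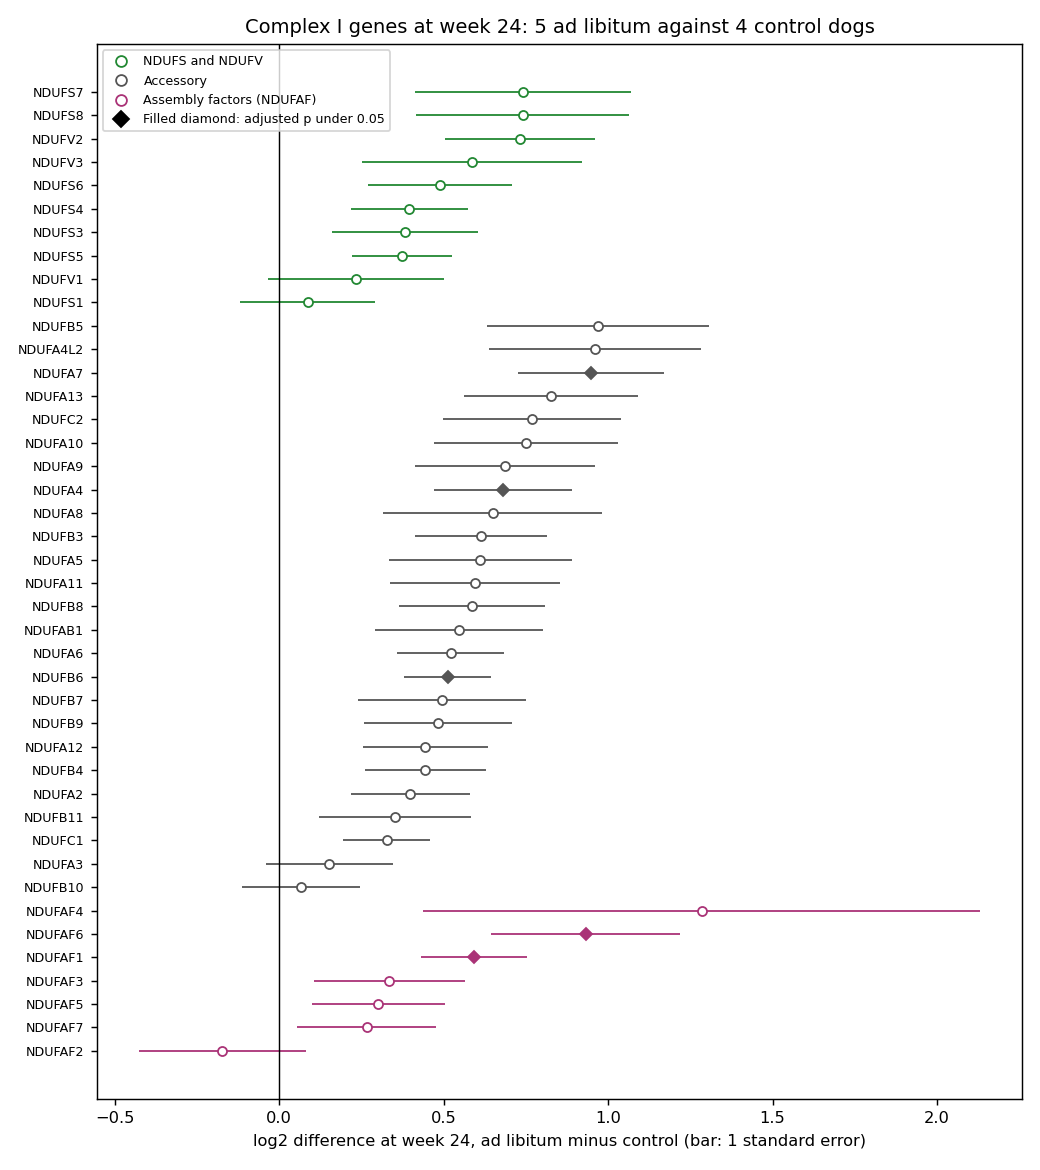
Fitted log2 difference at week 24, ad libitum minus control, for each of the 42 genes (bars, 1 standard error; colours, gene class; filled diamonds, adjusted p under 0.05 over all probe sets). All but NDUFAF2 lie right of 0, and the 5 filled genes lie between 0.51 and 0.95.

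Of the 10 NDUFS and NDUFV genes, all had a positive difference at week 24 and limma called 0, with a median of 0.44 and 6 with an unadjusted p under 0.05. NDUFV2, the 2Fe-2S subunit beside the NADH site, came closest, at 0.73 (SE 0.227, adjusted p = 0.0504). Its values were 11.58, 11.69, 11.78 and 12.27 in control dogs 1, 3, 4 and 9, and 13.05, 11.95, 12.45, 12.66 and 12.69 in ad libitum dogs 2, 5, 6, 7 and 8. Only dog 5 fell inside the control range. NDUFS7 and NDUFS8, which carry iron-sulfur clusters of the Q module, each stood at 0.74 (adjusted p = 0.172 and 0.166). NDUFV1, which binds NADH and FMN, stood at 0.23 (SE 0.268, adjusted p = 0.643), with 10.90, 11.02, 10.85 and 11.23 in control dogs and 11.66, 10.78, 11.09, 11.32 and 11.34 in ad libitum dogs, in the same order of dogs. NDUFS1, the largest core subunit, had the smallest difference of the class at its brightest probe set, 0.09 (SE 0.205, adjusted p = 0.848).

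Of the 25 accessory subunit genes, 25 had a positive difference at week 24, with a median of 0.59, and 3 were called higher: NDUFA7, NDUFA4 and NDUFB6. NDUFA7, an N-module subunit, measured 11.14, 10.78, 10.94 and 11.05 in control dogs 1, 3, 4 and 9, and 12.55, 11.28, 11.81, 11.96 and 12.04 in ad libitum dogs 2, 5, 6, 7 and 8. The groups did not overlap, and dog 2 was highest and dog 5 lowest of the ad libitum dogs. The fitted difference was 0.95 (SE 0.222, 1.93-fold, adjusted p = 0.0112), and a second NDUFA7 probe set gave 0.84 (adjusted p = 0.0196). NDUFB6, a distal membrane-arm subunit, measured 13.90, 13.83, 13.64 and 13.89 in the control dogs and 14.86, 14.09, 14.19, 14.24 and 14.26 in the ad libitum dogs, again without overlap. Its difference was 0.51 (SE 0.133, 1.43-fold, adjusted p = 0.0207), the smallest of the 5 called, beside a control SD of 0.12. The other NDUFB6 probe sets gave 0.65 (adjusted p = 0.0368) and 0.27 (adjusted p = 0.407).

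NDUFA4 measured 12.97, 12.97, 12.85 and 12.86 in control dogs 1, 3, 4 and 9, and 14.18, 13.02, 13.63, 13.67 and 13.48 in ad libitum dogs 2, 5, 6, 7 and 8. The groups did not overlap, but dog 5 lay just above the highest control dog. The difference was 0.68 (SE 0.209, 1.60-fold, adjusted p = 0.0483). A second NDUFA4 probe set gave 0.87 and was not called (adjusted p = 0.0588). Leaving out NDUFA4 and NDUFA4L2, which are not complex I subunits, gave 4 called genes of 40 and a median of 0.52. NDUFA4L2 differed by 0.96 (SE 0.322, adjusted p = 0.0697), with 6.28, 4.72, 6.63 and 6.76 in the control dogs and 7.26, 6.91, 6.91, 7.01 and 7.20 in the ad libitum dogs. Control dog 3, whose array carried muscle transcripts, was the lowest of all 45 arrays for this gene, and without that dog the difference was 0.50 (adjusted p = 0.325). NDUFAB1, the mitochondrial acyl carrier protein that also serves fatty acid synthesis, differed by 0.55 (SE 0.255, adjusted p = 0.194). Its groups overlapped through dog 5, with 12.61, 12.41, 12.47 and 12.53 in the control dogs and 13.92, 12.38, 12.78, 13.00 and 13.17 in the ad libitum dogs.

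Of the 7 assembly factor genes, 2 were called higher at week 24 and the median difference was 0.34. NDUFAF1, part of the complex that assembles the membrane arm, measured 9.33, 9.40, 9.64 and 9.64 in control dogs 1, 3, 4 and 9, and 10.21, 9.99, 10.02, 10.13 and 10.13 in ad libitum dogs 2, 5, 6, 7 and 8. All 5 ad libitum dogs, dog 5 included, were above all controls, and the difference was 0.59 (SE 0.161, 1.51-fold, adjusted p = 0.0275). NDUFAF6, needed for the Q module, measured 9.87, 8.84, 9.06 and 9.85 in the control dogs and 10.98, 9.30, 10.69, 10.42 and 10.28 in the ad libitum dogs. Dog 5 lay inside the control range, and the difference was 0.93 (SE 0.287, 1.91-fold, adjusted p = 0.0485). A second NDUFAF6 probe set gave 1.08 and was not called (adjusted p = 0.0508). NDUFAF2 was the only member below 0, at -0.17 (SE 0.254, adjusted p = 0.734), with 10.57, 10.14, 9.48 and 9.48 in the control dogs and 9.46, 9.93, 9.98, 9.74 and 9.61 in the ad libitum dogs. NDUFAF4 had the largest difference of all members, 1.28, with an SE of 0.847 (adjusted p = 0.378).

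**Figure D3:**
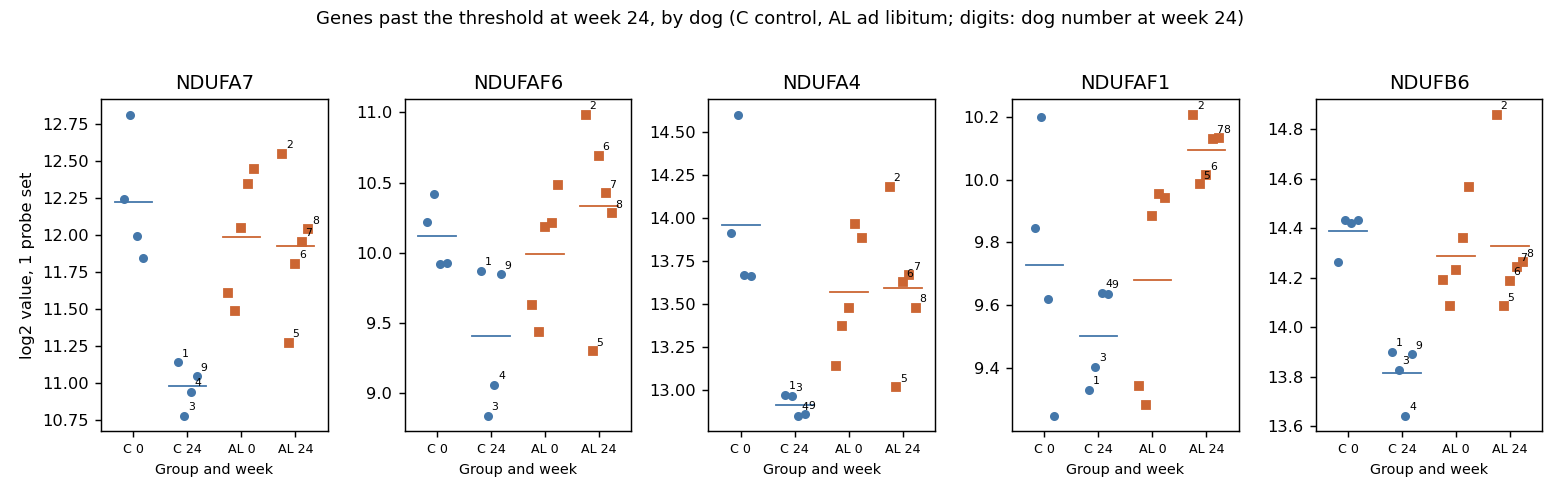
Log2 values of the 5 genes called at week 24, at weeks 0 and 24, with 1 point per dog (circles, control, C; squares, ad libitum, AL; lines, group means; digits, dog number at week 24). In NDUFA7, NDUFA4 and NDUFB6 the control dogs at week 24 lie below all control dogs at week 0, whereas NDUFAF1 at week 24 lies above all week-0 values in the ad libitum dogs.

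The feeding effect, the ad libitum group's change since week 0 less the control group's, asks whether the week-24 gap exceeds the gap present at the start. Limma called 0 of the 42 genes for it at week 24, where 0.022% of all probe sets (5 in all) were called. The effect was above 0 for 41 of 42 members, with a median of 0.68 and 22 with an unadjusted p under 0.05. Of all 22687 probe sets, 2316 had such a p. The members with the smallest p were NDUFA7 (1.14, SE 0.318, adjusted p = 0.222), NDUFA4 (1.03, SE 0.299, adjusted p = 0.238) and NDUFA6, an N-module subunit (0.76, SE 0.232, adjusted p = 0.261). NDUFAF2 was the only member below 0, at -0.02. Averaged over weeks 4, 8, 12 and 24, the effect had a median of 0.20, and 0 members and 0% of all probe sets were called. An unadjusted p under 0.05 was found for 2 members and for 957 of all 22687 probe sets. The smallest p there belonged to NDUFA4 (0.60), NDUFA6 (0.41) and NDUFA11 (0.58) above 0, and to NDUFAF3 (-0.11), NDUFA4L2 (-0.03) and NDUFV1 (0.00, just below 0). For NDUFA4L2 and NDUFV1 the plain group means gave the other sign (0.02 and 0.04), and week 4 enters this average.

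Most complex I genes were lower at week 24 than at week 0 in the control dogs. Limma called 30 of 42 lower and 0 higher, against 4.71% of all probe sets called lower, with a median change of -0.95 over the members and 0.03 over all probe sets. In 35 members every week-24 control array was below every week-0 control array, against 9.49% of all probe sets. All 4 control dogs were lower in 37 of 42 genes. This change is also the change into batch 6, and the batch and the week cannot be told apart. The count was 0 without dog 3 (median -0.75, 40 of 42 below 0, 27 with an unadjusted p under 0.05) and 14 without dog 9. All probe sets called, in either direction, went from 1796 to 140 without dog 3 and 384 without dog 9.

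In the control dogs the NDUFS and NDUFV genes and the accessory subunits shared in this fall, and the assembly factors little. Every member but NDUFAF2 had a change below 0, and the counts here are of genes past the threshold. Of the NDUFS and NDUFV genes 9 of 10 were called lower (median -1.07), all 6 catalytic core genes among them. NDUFS1 passed only at its brightest probe set (-0.72, adjusted p = 0.0356). Its other probe sets gave -0.86, -1.05 and -0.70 (adjusted p = 0.2245, 0.287 and 0.572). Of the accessory genes 20 of 25 were called lower (median -1.13), and of the assembly factors 1 of 7 (median -0.40). By place in the complex, 4 of 4 Q-module genes (median -1.46) and 10 of 10 distal membrane-arm genes (-1.04) were called lower. So were 5 of 7 proximal membrane-arm genes (-1.28) and 7 of 10 N-module genes (-0.79). The lists of places used here leave out NDUFA9 and NDUFA11, which limma also called lower (-1.42 and -1.41, adjusted p = 0.00388 and 0.00261). No test compared the classes with one another.

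NDUFS8 fell by the most, from 12.66, 13.53, 11.61 and 11.57 in control dogs 1, 3, 4 and 9 at week 0 to 10.57, 10.59, 10.22 and 10.51 at week 24. Every dog fell, and the fitted change was -1.79 (SE 0.343, 3.47-fold lower, adjusted p = 0.00249). The fitted change is adjusted for batches 1 to 5 and so differs slightly from the difference of the means. NDUFS7 went from 12.93, 13.67, 12.14 and 11.95 to 10.95, 10.73, 10.62 and 11.11, a change of -1.76 (SE 0.348, adjusted p = 0.00308). NDUFV3, an N-module accessory subunit, went from 11.11, 12.01, 10.69 and 10.62 to 9.63, 9.23, 9.23 and 9.84, a change of -1.56 (SE 0.354, adjusted p = 0.00754). A second NDUFV3 probe set gave -0.74 and was not called (adjusted p = 0.0752). In these 3 genes the week-0 values of dogs 1 and 3, whose week-0 arrays carried muscle transcripts, were the highest.

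NDUFA8, a proximal membrane-arm subunit held in the intermembrane space, went from 13.17, 14.00, 12.44 and 12.42 in control dogs 1, 3, 4 and 9 to 11.10, 11.60, 11.33 and 11.60. Its change was -1.56 (SE 0.353, adjusted p = 0.00718). NDUFV1 changed by -1.22 (adjusted p = 0.00877), NDUFAB1 by -1.16 (adjusted p = 0.00877), NDUFA4 by -1.01 (adjusted p = 0.00568) and NDUFB6 by -0.56 (adjusted p = 0.0126). Dogs 1 and 3, with muscle transcripts at week 0, were also the highest control dogs of that week in NDUFA8, NDUFV1, NDUFAB1 and NDUFA4. In NDUFB6 dog 1 was the lowest. NDUFAF3, an assembly factor of the Q module, was the only assembly factor called (-0.95, SE 0.245, adjusted p = 0.0145). NDUFAF1 stood at -0.19 (adjusted p = 0.532), and NDUFAF2 at 0.49 (adjusted p = 0.264) was the only member above 0.

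In the ad libitum dogs limma called 3 of 42 genes lower at week 24 than at week 0 and 0 higher, against 2.4% of all probe sets called lower. The median change was -0.23, with 29 members below 0, and it too is a change of batch. That median was -0.52 without dog 2 and -0.04 without dog 8. Omitting dog 2 gave 9 calls, omitting dog 4 gave 5, omitting dog 1 gave 2 and omitting dog 3 gave 1, while omitting any of dogs 5, 6, 7, 8 and 9 gave 0. Of all probe sets 1084 were called in either direction with all dogs, and 804 to 1312 without dog 1, 2, 3 or 4. The number was 91 to 724 without dog 5, 6, 7, 8 or 9. With those dogs left out the smallest adjusted p of a member was 0.0665, 0.135, 0.164, 0.0533 and 0.0514, in that order, and 7, 10, 5, 4 and 12 members had an unadjusted p under 0.05. No member had all week-24 ad libitum arrays below all week-0 ones (2.98% of all probe sets did), and in 1, NDUFAF1, all were above (0.45, SE 0.155, adjusted p = 0.0841).

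NDUFV1 measured 11.64, 11.59, 12.06, 12.66 and 12.74 at week 0 in ad libitum dogs 2, 5, 6, 7 and 8, and 11.66, 10.78, 11.09, 11.32 and 11.34 at week 24. Dog 2 did not fall, the other 4 did, and the change was -0.90 (SE 0.257, adjusted p = 0.0365). NDUFB7, a distal subunit facing the intermembrane space, changed by -0.83 (SE 0.245, adjusted p = 0.0442), from 12.04, 11.61, 12.47, 12.79 and 12.61 to 12.17, 10.71, 11.15, 11.68 and 11.73. Dog 2 again was not lower. NDUFS1 changed by -0.67 (SE 0.196, adjusted p = 0.0414) at its brightest probe set, and was the only member lower in all 5 ad libitum dogs.

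At week 12, within batches shared by other weeks, limma called 0 members against week 0 in either group, where 0% of all probe sets were called in control and 0.802% in ad libitum dogs. In control dogs 1 member had an unadjusted p under 0.05, as did 4029 of all 22687 probe sets, and the median change of the members was -0.07. The smallest p belonged to NDUFA4L2 (0.55), NDUFAF1 (0.18) and NDUFA12 (0.15), and to NDUFAF4 (-2.19), NDUFS4 (-0.29) and NDUFV2 (-0.32). The member count rose to 2 without dog 1. In ad libitum dogs 4 members had an unadjusted p under 0.05, as did 3073 of all probe sets, and the median of the members was -0.18. The smallest p belonged to NDUFAF2 (0.27), NDUFAF1 (0.13) and NDUFA6 (0.10), and to NDUFS7 (-0.80), NDUFB7 (-0.57) and NDUFS8 (-0.66).

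**Figure D4:**
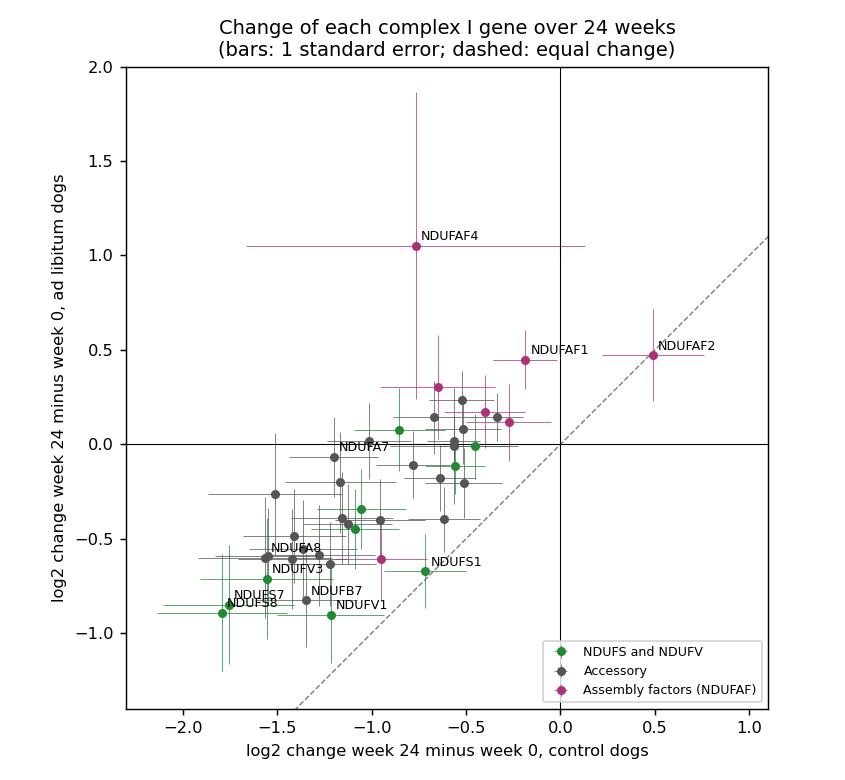
Log2 change from week 0 to week 24 of each of the 42 genes in control dogs (horizontal) and ad libitum dogs (vertical), coloured by class, with 1 standard error and a dashed line of equal change. The genes lie above the line apart from NDUFAF2, and NDUFS8 and NDUFS7 are farthest left at -1.79 and -1.76.

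The dogs of the ad libitum group did not act as 1 block. From week 0 to week 24 the mean over the 42 genes changed by -0.96, -1.55, -0.82 and -0.53 in control dogs 1, 3, 4 and 9, and by 0.63, -0.37, -0.34, -0.65 and -0.46 in ad libitum dogs 2, 5, 6, 7 and 8. Dog 2 was the only dog of either group whose mean rose, with 2 of 42 genes lower. Each of the other 8 dogs had 33 to 41 genes lower. At week 24, dog 2 was above all control dogs in 40 of 42 genes, dogs 7 and 8 in 39, dog 6 in 33 and dog 5 in 10. Dog 5 lay within the control range in 21 genes and below it in 11.

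Readings of cell types and of RNA quality on the same arrays are set beside these values, and no association between them was tested. At week 24 the mean of the 13 adipocyte markers was 12.68, 11.48, 12.07 and 12.80 in control dogs 1, 3, 4 and 9, and 13.84, 11.75, 13.63, 13.60 and 13.52 in ad libitum dogs 2, 5, 6, 7 and 8. Dog 5, with complex I values like the controls, had the lowest adipocyte mean of its group, and dog 2 the highest of all 45 arrays. Of the 13 markers 3 were called higher in ad libitum dogs (AQP7, LEP and LIPE). The mean of 9 macrophage markers was 10.68 in dog 5, the highest of the 45 arrays, and 8.54 to 10.08 in the other dogs of that week. A list of epithelial markers stood at 9.13 in control dog 4, its highest value on any array. Whether fewer fat cells or less RNA per fat cell lies behind such values cannot be told apart in whole tissue, and the part of adipocyte content in the complex I difference was not tested.

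The log2 value of the actin 3' probe set minus that of its 5' probe set, which rises as RNA is degraded, was 4.60, 3.18, 5.86 and 5.53 at week 24 in control dogs 1, 3, 4 and 9, and 2.37, 4.47, 4.10, 3.90 and 2.73 in ad libitum dogs 2, 5, 6, 7 and 8. The group means were 4.79 and 3.51, against 1.74 to 3.00 at the earlier weeks. The same measure on GAPDH did not separate the groups or week 24, with group means of 2.48 in control and 2.50 in ad libitum dogs at week 24 and 2.30 to 2.75 at the earlier weeks. With the actin value as a covariate the median week-24 difference between the groups was 0.41 with 39 of 42 members above 0, and the median control change was -0.78 with 40 of 42 below 0. Limma called 0 members in both, with 10 and 24 at an unadjusted p under 0.05. Of all probe sets it then called 29 and 8.

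Muscle transcripts, from a tissue rich in mitochondria, accompanied the highest control values at week 0: the mean of the 42 genes was 11.96 and 12.43 with them and 11.72 and 11.62 without. Ad libitum dog 5, with a muscle-list mean of 11.87 at week 0, was nevertheless the lowest of the 9 arrays of that week (11.36). At week 24 the control dogs with muscle transcripts, 3 and 4, were the lowest of the group (10.88 and 10.90). Without the 10 arrays with muscle, 2 control and 5 ad libitum arrays remained at week 24, and 2 of each group at week 0. The median difference between the groups at week 24 was then 0.49, with 41 of 42 members above 0, and the median control change was -0.70, with 40 below 0. The median change in ad libitum dogs was -0.01. Limma called 0 members in each of the 3, with 19, 22 and 2 at an unadjusted p under 0.05. Of all probe sets it then called 64, 23 and 92. Control dog 9, free of muscle transcripts at both weeks, went from 11.62 to 11.09.

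UCP1, the uncoupling protein that defines brown and beige fat cells, was at 10.26 on the week-24 array of ad libitum dog 2, which also had the highest complex I mean of the 9 arrays of that week. It exceeded 4 on 2 other arrays, both of ad libitum dog 8 (5.87 at week 0 and 4.95 at week 8), and its median over all arrays was 1.96. The brown fat genes PRDM16, ELOVL3 and DIO2 exceeded 4 on 0 arrays. The list held 1 tested gene, CIDEA, which canine white fat cells also express (15.69 on average here). UCP1 was above 4 on too few arrays to be tested, and its relation to complex I was not tested.

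**Figure D5:**
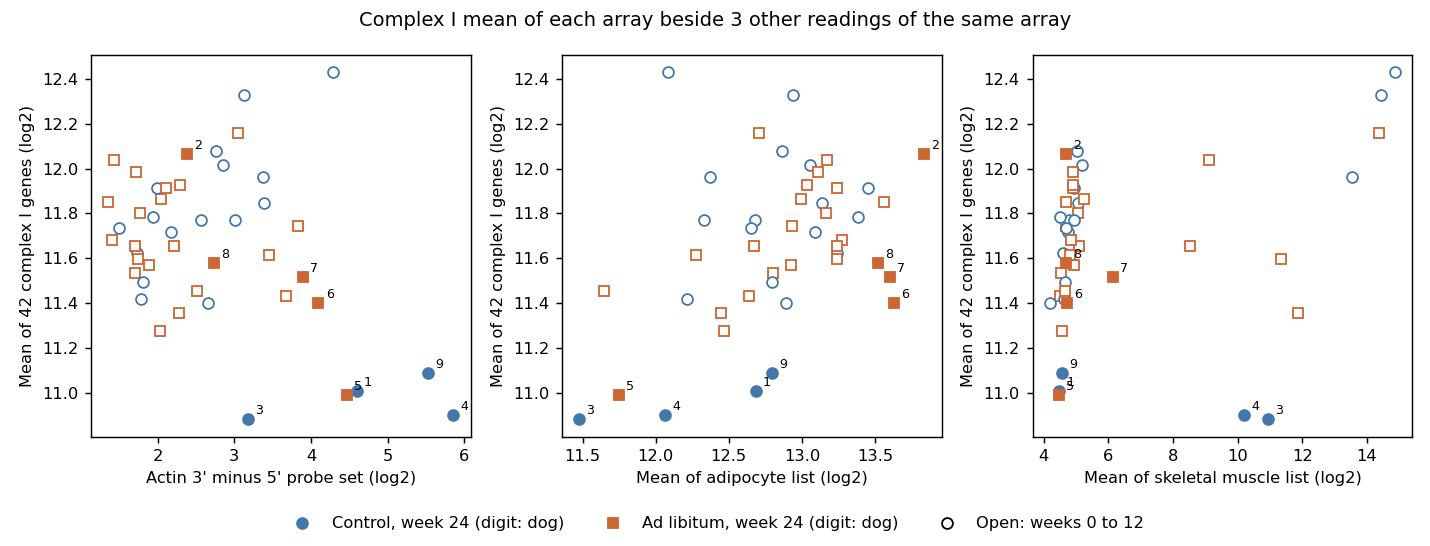
Mean log2 value of the 42 genes on each array against the actin 3' minus 5' value (left), the adipocyte list mean (middle) and the skeletal muscle list mean (right); circles are control, squares ad libitum, filled symbols week 24 with the dog number, open symbols weeks 0 to 12. The vertical value of an array is the same in all 3 panels. The control dogs of week 24 (11.09 and below) and ad libitum dog 5 at week 24 (10.99) have the lowest vertical values.

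The probe sets of a gene mostly shared the sign of a difference. Besides the brightest ones, 31 probe sets of 24 member genes were tested. For the change from week 0 to week 24, 3 of the 31 had the opposite sign to the brightest in control dogs, and 7 in ad libitum dogs. At week 24 the group difference had the sign of the brightest probe set in 29 of them, and the opposite sign in 1 of NDUFAF2 (0.17) and 1 of NDUFAF5 (-0.02). Sizes differed more, as in NDUFC1 (0.33 at the brightest, 0.92 at another), NDUFB5 (0.97 and 0.44) and NDUFV3 (0.59 and 0.06), and the widest gaps were in NDUFS1. Its brightest probe set (mean 10.80) differed by 0.09 between the groups, while the other 3, with means of 10.15, 9.17 and 7.56, differed by 1.06 (SE 0.419), 1.44 (SE 0.570) and 0.94 (SE 0.648), with adjusted p = 0.124, 0.124 and 0.404. Their correlation with the brightest probe set over the 45 arrays was 0.10, 0.05 and -0.16.

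At the probe set with a mean of 10.15, NDUFS1 measured 9.16, 9.37, 9.33 and 9.92 in control dogs 1, 3, 4 and 9, and 11.38, 9.48, 10.62, 10.51 and 10.52 in ad libitum dogs 2, 5, 6, 7 and 8. The brightest probe set measured 10.08, 10.35, 10.06 and 10.21 in the control dogs and 10.69, 10.33, 9.98, 10.29 and 10.03 in the ad libitum dogs. The first sorted dogs 2, 6, 7 and 8 from dog 5 and the controls, as most members did, and the second did not. Its change from week 0 in ad libitum dogs was -0.67 at the brightest and -0.01, 0.37 and 0.87 at the other 3, so the fall of NDUFS1 in ad libitum dogs rests on 1 of 4 probe sets.

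The other respiratory complexes gave similar values. Of 29 measured genes of complexes II to V, 27 had a positive difference at week 24 (median 0.46) and 3 were called higher, against 3.76% of all probe sets. The 3 were COX7A2L, which links complexes III and IV (0.99, adjusted p = 0.0248), COX8A of complex IV (0.78, adjusted p = 0.0439) and ATP5J2 of ATP synthase (0.72, adjusted p = 0.0179). In control dogs 22 of the 29 were lower at week 24 than at week 0 (median -1.09), and in ad libitum dogs 0 were called (median -0.41, 11 with an unadjusted p under 0.05). Of all 22687 probe sets, 4948 had an unadjusted p under 0.05 for that change in ad libitum dogs. A difference between complexes was not tested.

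Assembly factors of complex I with other names were looked up as well, 11 of 13 of them measured. TIMMDC1, which helps build the membrane arm, was higher in ad libitum dogs at week 24 (1.35, SE 0.378, adjusted p = 0.0312), and the other 10 had positive differences of 0.11 to 0.77 that were not called. In control dogs 3 of the 11 were called lower than at week 0, against 4.71% of all probe sets. They were TMEM126B, a partner of NDUFAF1 (-1.01, adjusted p = 0.00365), CHCHD4, which imports cysteine-rich subunits (-1.30, adjusted p = 0.0158), and ECSIT, another partner of NDUFAF1 (-0.93, adjusted p = 0.0204). Of 14 regulators of mitochondrial genes 9 were measured, and limma called 0 of them in these 3 comparisons, with 3, 3 and 1 at an unadjusted p under 0.05. Of all 22687 probe sets, 5155 had such a p between the groups, 5577 in control dogs and 4948 in ad libitum dogs. PPARA, which controls fatty acid oxidation, had the largest difference between the groups (1.76, SE 0.607, adjusted p = 0.0770). In control dogs the median change of the 9 was -0.31, with 3 above 0, and the smallest adjusted p was 0.0539, for the coactivator PPARGC1B (-1.23). ESRRA and PPARGC1A, which act together on respiratory chain genes, stood at -1.85 each (adjusted p = 0.0598 and 0.0801) in control dogs and at -0.30 and 0.02 in ad libitum dogs.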

How the data were processed

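The deposited table holds log2 expression values, 1 per probe set and array. The authors used GCRMA, per the submitters' processing notes, with no version given, and the scale was read as log2 from its range of 0.42 to 17.51. Any batch correction by the authors is not given in the sources used here. RNA was labelled with a 3' amplification kit, per the labels' protocols, so RNA degradation can lower values. The members and gene lists were chosen with earlier results of these data known. Of 43035 probe sets, 175 array controls were left out. The 22687 above log2 4 on at least 4 arrays were fitted with limma 3.58.1 in R 4.3.3. The fit had a mean per feeding group and week, a term for batches 1 to 5 and the dog as a random block, since the labels give the same animal at every week (estimated correlation 0.00563, 31 residual degrees of freedom). P-values were Benjamini-Hochberg adjusted over all tested probe sets, with a threshold of 0.05. The fit was tested on simulated data. Gene symbols are those of the platform annotation, and a member is its brightest probe set. Members named in each comparison are those past the threshold, by size (up to 12 between the groups at week 24, up to 4 of each sign elsewhere), or, where fewer than 3 passed, the 3 lowest p-values above and below 0. NDUFS1, NDUFV1, NDUFB6, NDUFA4, NDUFA4L2, NDUFAB1, NDUFAF1 and NDUFAF2 are named in any case, and other members by ranges or where their values stood out after they were seen. Alternatives covered the block, batch, normalization, filter, probe set choice, arrays and RNA quality. Gene sequences are not used here.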

Additional observations from a re-analysis of the deposited data

Results flagged for a closer look

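In 9 of 190 groups of values examined, 1 dog stood far from the rest of its group, and chance alone gives about 1 in 20 such groups. Control dog 4 was low at week 12 in the mean over the 42 genes (11.42, the other 3 at 11.73 to 11.78), in NDUFS7 (11.43, the others 12.23 to 12.36) and in NDUFA4 (13.39, the others at 13.68). Ad libitum dog 2 was high in NDUFB6 at week 24 (14.86, the others 14.09 to 14.26) and in NDUFA8 at week 12 (12.89, the others 11.96 to 12.18). At week 8 the library labelled ad libitum dog 5, most like dog 9 by identity, was high in NDUFV1 (12.70, the others 11.85 to 12.09). Ad libitum dog 6 was high in NDUFA4L2 at week 4 (7.90, the others 6.91 to 7.10). Control dog 3 was low in NDUFAF6 at week 4 (10.01, the others 10.58 to 10.70), and control dog 1 in NDUFB6 at week 0 (14.26, the others 14.42 to 14.43).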

How the results depend on the processing

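The 5 genes higher at week 24 became 3 with no batch term, with quantile normalization, with no filter on low values or without the 2 week-8 arrays of doubtful identity, 2 with the second probe set of 24 genes and 1 with arrays centred on their median. They became 6 with a filter at log2 6, and 7 with a robust trend or with the mean over a gene's probe sets. They became 0 without the arrays with muscle, with the actin value as covariate or on the arrays of that week alone, and 0 to 22 with 1 dog left out. All probe sets called, in either direction, went from 1238 to 64 without muscle arrays, 29 with the actin covariate and 48 on that week alone. By gene, NDUFA7 stayed called in 18 of 22 alternatives, NDUFB6 in 14 of 22 and NDUFAF1 in 11 of 21. NDUFA4 and NDUFAF6 stayed called in 5 of 22 each. The 30 called lower in control dogs became 0 without muscle arrays, 0 with the actin covariate, 15 with the second probe set of 24 genes and 0 to 31 with 1 dog left out. All probe sets called there went from 1796 to 23 without muscle arrays, 8 with the actin covariate and 140 without dog 3. The 3 called lower in ad libitum dogs became 1 with the dog as a fixed replicate block, 1 with the second probe set, 0 without muscle arrays, with the actin covariate or with no filter, and 0 to 9 with 1 dog left out. All probe sets called there went from 1084 to 92 without muscle arrays and 807 with the actin covariate, and to 643 of 42860 with no filter. Leaving the block out of the fit kept the counts at 5, 30 and 3. The 0 at week 12 in control dogs ran from 0 to 2. The median week-24 difference ran from 0.39 to 0.68. The 7 other counts of 0 stayed at 0 in every alternative run. At week 4 no batch held both groups, so the fit on that week alone was made without a batch term, an alternative added after seeing the data. Of 45 values for named genes, 44 kept their sign in every alternative or were not called, and 1 reversed: the change of NDUFS1 in ad libitum dogs was 0.14 as the mean over its probe sets. The causes were not tested. The number of dogs limits all of these values.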
